A study of Homo sapiens with 9 samples.

Results

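The genes described here are 40 genes of the endoplasmic reticulum (ER) that code for chaperones, folding enzymes, stress sensors and the machinery that carries proteins into and out of that compartment. They are a list of symbols grouped by function and matched to the Ensembl identifiers of the deposited table. The rule uses no fold change, but the list was drawn up with earlier results of these data known. All 40 were found among the 15354 genes of the table. All 40 also reached at least 1 CPM (a gene's reads per 1000000 reads of its library) in at least 3 of the 9 libraries. The member closest to that limit was ERN1, whose lowest library held 1.19 CPM from 25 reads, and the next was CRELD1, whose lowest library held 4.5 CPM.

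RNA was sequenced from HCT116, an established human colorectal cancer cell line, harvested 36 h after small interfering RNAs (siRNAs) had been delivered by reverse transfection, at 25 nM per the labels, where the study's general methods give a higher concentration. The groups were a commercial non-targeting control siRNA, and siRNA A and siRNA B against the long non-coding RNA SNHG5, with 3 libraries each. Every group received an siRNA and the same transfection reagent, so there was no untransfected group, and the labels do not say which of the study's named siRNAs was A or B. Poly(A)-selected RNA was read as single ends of 50 bases, and the libraries held between 15566530 and 23277549 reads.

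The ER is where secreted and membrane proteins enter the secretory pathway, receive disulfide bonds and glycans, and fold. When unfolded proteins build up there, sensors in its membrane respond. IRE1 (ERN1) splices the XBP1 mRNA, PERK (EIF2AK3) phosphorylates the translation factor eIF2alpha, and ATF6 travels to the Golgi to be cut into a transcription factor. ATF6 and spliced XBP1 then bind ER stress response elements and switch on chaperone and degradation genes such as HSPA5, and this program is known as the unfolded protein response. Secretory cells of the gut lining, such as goblet and Paneth cells, are known to rely on it. Read counts per gene do not show XBP1 splicing, PERK phosphorylation or ATF6 cleavage.

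Values below are CPM divided by a TMM factor (trimmed mean of M values) for each library, called TMM-scaled CPM. Log2 fold changes are on the log2(TMM-scaled CPM + 1) scale with their standard error (SE), and are smaller than the true change for genes at low levels. They come from limma with 3 libraries a group, and an adjusted p under 0.05 over 13893 genes is a call. The targeted gene, SNHG5, went against the labels. SNHG5 (ENSG00000203875.5, chr6:86360209-86388650, GRCh37) stood at 31.3, 22.1 and 25.9 TMM-scaled CPM in the control libraries, at 71.5, 58.8 and 67.3 in those labelled siRNA A and at 46.2, 50.3 and 46.1 in those labelled siRNA B. It was therefore higher in all 6 libraries labelled as knockdown, by 1.29 (SE 0.13, adjusted p = 1.86e-05) and 0.83 (SE 0.13, adjusted p = 5.9e-04) on the log2 scale. Gene coordinates are on GRCh37 throughout, and promoter coordinates on GRCh38.p14. SNHG5 overlaps ENSG00000271793 and PKMP3 on its own strand, so its reads are uncertain. Every direction below is between libraries as labelled, and a loss of SNHG5 reads is not seen in them.

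Of 7 epithelial markers, 6 were measured, and their summed level ran from 1749 to 1899 TMM-scaled CPM in control, from 3042 to 4024 with siRNA A and from 2336 to 2495 with siRNA B. Of 4 fibroblast markers, 2 were measured, with sums of 15.5 to 17.8, 10.8 to 13.7 and 8.77 to 9.88 in the same order. Only 1 of these 2 passed the filter on low values. The highest value of a single fibroblast marker was 17.5, so the sums rest mainly on 1 gene. Of 3 leukocyte markers, 1 was measured, at 1.36 or less in every library. The 2 endothelial markers were looked for but not found among the matched genes of the deposited table, so they have no value here. None of the measured markers was at 0 in every library. The part of these marker levels in the results below was not tested. In bulk RNA, fewer cells that use a gene and less RNA of it per cell cannot be told apart.

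The element that ATF6 and XBP1 recognise was looked for in the promoters of the members, because it is the best-known binding site of this response. RefSeq promoters on GRCh38.p14, from 250 bases before to 50 after the start site, were at hand for 37 of the 40 members. The ER stress response element (ERSE) was searched on both strands as CCAAT, 9 bases of any kind and CCACG. It was found in 7 members and in 25 of 27305 genes with a promoter (0.0916%). The members were listed as genes of this response, so a larger share among them is no independent result. The ERSE windows follow, written along the gene's strand, 5′ to 3′, with the outer parts of the element in capitals. For HSP90B1, which held the element at 2 places, the site nearer the start is shown.
HSPA5, chr9:125241385-125241415, minus strand: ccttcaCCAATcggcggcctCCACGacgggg
HSP90B1, chr12:103930315-103930345, plus strand: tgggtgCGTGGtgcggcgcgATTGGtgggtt
CANX, chr5:179698772-179698802, plus strand: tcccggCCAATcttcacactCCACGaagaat
CALR, chr19:12938378-12938408, plus strand: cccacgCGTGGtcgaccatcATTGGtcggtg
CRELD2, chr22:49918548-49918578, plus strand: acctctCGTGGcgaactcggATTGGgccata
PDIA6, chr2:10812847-10812877, minus strand: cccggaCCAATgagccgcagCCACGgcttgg
XBP1, chr22:28800597-28800627, minus strand: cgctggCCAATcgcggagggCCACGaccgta

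The same parts stood closer together in ERSE-II, searched as ATTGG, 1 base of any kind and CCACG. It was found in 3 members and in 19 of the 27305 genes (0.0696%), and for HYOU1 the site nearer the start is shown of 2. The core TGACGTGG of the unfolded protein response element was found in 4 members (DNAJC10, HYOU1, TXNDC5 and TXNDC11) and in 0.927% of the genes. In HYOU1 it overlapped the farther ERSE-II.
HERPUD1, chr16:56932019-56932041, plus strand: acgccgATTGGgCCACGttggga
HYOU1, chr11:119057268-119057290, minus strand: ctgggaCGTGGtCCAATgagtac
SDF2L1, chr22:21642108-21642130, plus strand: cggaagCGTGGaCCAATcaaaac

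Only the promoter window around the start site was searched, so the closeness of these elements to that site is fixed by the search. Within the window, the element in XBP1 ended 33 bases before the start site, that in HSPA5 47 bases and that in CALR 206 bases. Genes that share the ERSE did not share a direction. With siRNA A, 3 of the 7 were called higher (HSPA5, HSP90B1 and CANX), 2 lower (CALR and CRELD2) and 2 were not called (PDIA6 and XBP1), where 23.9% of all genes tested were called higher and 27.6% lower. With siRNA B, 2 were called higher (HSPA5 and CANX) and the same 2 lower (CALR and CRELD2), where 15.6% of all genes were called higher and 18.3% lower. Of the 3 ERSE-II genes, HYOU1 alone was called, lower with siRNA A. A match is a description of letters in a window and not evidence that a factor binds there.

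Of the 40 genes, 19 were higher and 9 lower in the libraries labelled siRNA A than in control, and 12 were not called. The share of higher calls was thus above the 23.9% of all genes and that of lower calls below their 27.6%. With siRNA B, 9 were higher, 7 lower and 24 not called, beside the 15.6% and 18.3% of all genes. The median log2 fold change of the 40 genes was 0.35 with siRNA A, beside −0.02 for all genes, and 0.03 with siRNA B, beside 0.0043 for all genes. No gene of the 40 was called in opposite directions by the siRNAs. These comparisons share the control libraries. In every called gene of the 40 the 3 libraries of one group lay outside the range of the 3 of the other. The share of all called genes with such separation was not computed, so it adds no support to these calls.

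**Figure D1:**
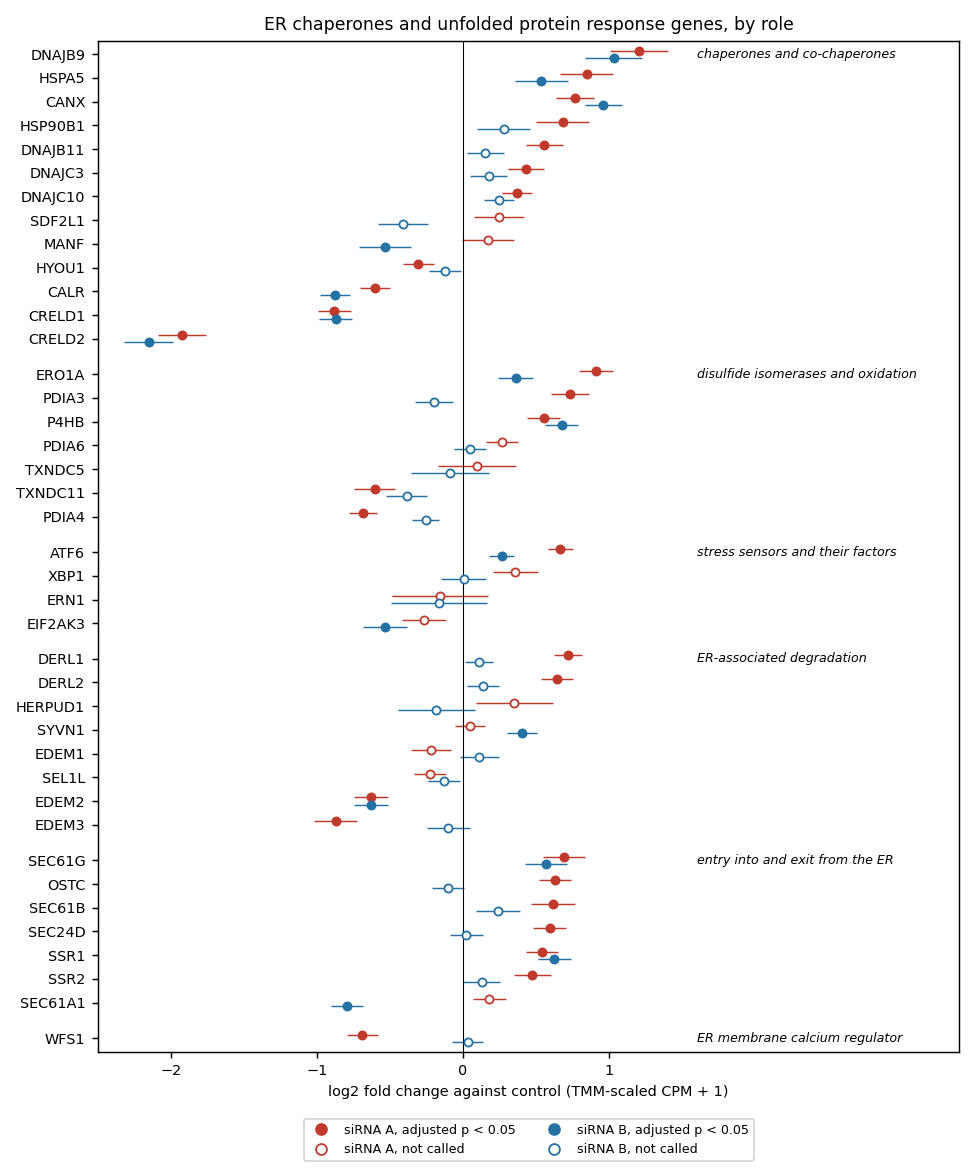
Log2 fold change against control of each of the 40 genes (horizontal axis, bars are SE) for siRNA A (red) and siRNA B (blue), grouped by role, with filled points for an adjusted p under 0.05. DNAJB9 lies farthest to the right and CRELD2 farthest to the left for both siRNAs, and most genes of entry into and exit from the ER lie to the right for siRNA A.

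The number of calls in each direction changed with the scaling of the libraries, for the 40 genes and for all genes alike. The TMM factors averaged 1.14 in control, 0.886 in siRNA A and 0.988 in siRNA B. As a plain share of each library's reads, the 40 genes took 0.893% to 0.97% in control, 0.929% to 1.0% with siRNA A and 0.844% to 1.07% with siRNA B, and these ranges overlap. Summed as TMM-scaled CPM, they stood at 7489 to 8531 in control, at 10411 to 11240.1 with siRNA A and at 8903 to 10342 with siRNA B, so the 3 groups were apart on that scale.

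With library totals alone, the median of all genes moved by −0.32 (siRNA A) and by −0.19 (siRNA B) on the log2 scale, and 7 of the 40 genes were called higher and 13 lower with siRNA A. All genes then stood at 9.05% higher and 47.0% lower. With siRNA B, 4 of the 40 were called higher and 12 lower with totals alone, beside 6.9% and 29.7% of all genes. Measured from the median of all genes, the median of the 40 genes was 0.38 above it on the TMM scale and 0.33 above it with totals alone for siRNA A. The corresponding differences for siRNA B were 0.02 and 0.0060. The genes called higher with siRNA A on both scales were HSPA5, DNAJB9, CANX, PDIA3, ERO1A, ATF6 and DERL1, and with siRNA B they were DNAJB9, CANX, P4HB and SSR1.

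**Figure D2:**
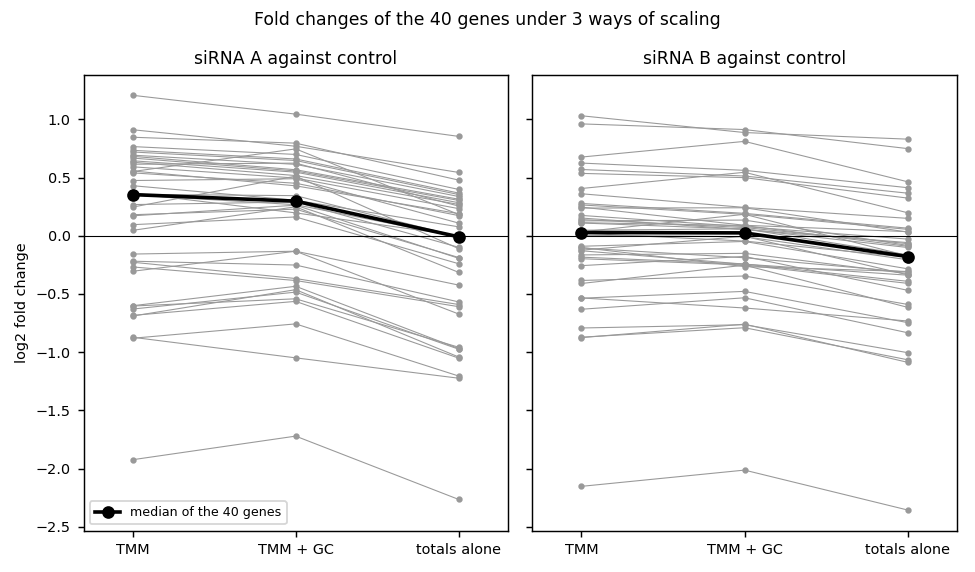
Log2 fold change against control of the 40 genes (grey lines) and their median (black) when libraries are scaled by TMM, by TMM with a correction for the GC content of exons, and by library totals alone. All lines drop together with totals alone, where the median of the 40 genes for siRNA A reaches −0.01.

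Base composition also moved with the direction of the calls. The members called higher with siRNA A had a median exon GC content of 41.6% and those called lower 54.4%, beside 44.9% and 52.9% for all genes called higher and lower. With siRNA B the medians were 42.8% and 53.5% for the members, beside 45.2% and 53.4% for all genes. After a correction for GC content, 19 members were called higher and 10 lower with siRNA A, and 6 higher and 7 lower with siRNA B.

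In the control libraries the most abundant members, per kilobase of their canonical transcript, were the calcium-binding lectin chaperone CALR with 547 ± 11.2 TMM-scaled CPM per kilobase (SD, n = 3), HSP90B1 with 474 ± 97.1 and P4HB with 428 ± 20.8. The libraries of HSP90B1 ran from 396 to 582 and overlapped those of both its neighbours in this order. HSPA5 followed with 215 ± 37.6 and CANX with 160 ± 6.50 per kilobase. The lowest were the sensor genes EIF2AK3 with 3.10 ± 0.499 and ERN1 with 0.383 ± 0.172 per kilobase.

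The counts of each role group are to be read against the shares of all genes called with siRNA A (23.9% higher, 27.6% lower) and with siRNA B (15.6% higher, 18.3% lower). Among the 13 chaperones and co-chaperones, 7 were higher and 4 lower with siRNA A, and 3 were higher and 4 lower with siRNA B. HSPA5 (ENSG00000044574.7, chr9:127997132-128003661, GRCh37), also called BiP, is the HSP70 chaperone of the ER lumen that also holds the sensors inactive. It stood at 955, 675 and 897 TMM-scaled CPM in the control libraries, at 1714, 1356 and 1449.5 in siRNA A and at 1547, 982 and 1162 in siRNA B. All 6 siRNA libraries lay above all 3 control libraries, although siRNA B replicate 2 was close to control replicate 1. The log2 fold change was 0.85 with siRNA A (SE 0.18, adjusted p = 0.00235) and 0.54 with siRNA B (SE 0.18, adjusted p = 0.0395). The siRNA B call was lost under 9 of 18 alternative settings, among them leaving out control replicate 2 (0.37, adjusted p = 0.166), control replicate 3 (0.59, adjusted p = 0.0655), siRNA B replicate 1 (0.35, adjusted p = 0.171) or siRNA B replicate 3 (0.56, adjusted p = 0.0644). It was also lost when siRNA A replicate 3 was left out (adjusted p = 0.0552).

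HSP90B1 (ENSG00000166598.8, chr12:104323885-104347709), known as GRP94, is the HSP90 chaperone of the ER. Its levels were 1620.4, 1102 and 1229.9 TMM-scaled CPM in control, 2315, 1917 and 2048 in siRNA A and 1707, 1233 and 1859 in siRNA B. Only the siRNA A libraries were clear of control, with a log2 fold change of 0.68 (SE 0.18, adjusted p = 0.00807), against 0.28 (SE 0.18, adjusted p = 0.261) for siRNA B. The siRNA A call was lost with totals alone (0.31, adjusted p = 0.162). HSP90B1 overlaps other annotated genes on both strands, and strand use in counting was not given in the sources used here.

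DNAJB9 (ENSG00000128590.4, chr7:108210311-108215294), or ERdj4, is a J-domain partner of HSPA5 and a known target of spliced XBP1. Its 3 control libraries held 22.3, 11.9 and 17.9 TMM-scaled CPM, those of siRNA A 42.6, 42.8 and 35.4, and those of siRNA B 41.2, 37.1 and 29.0. Every siRNA library was above every control library, and no member rose more with either siRNA. The log2 fold change was 1.21 with siRNA A (SE 0.20, adjusted p = 4.19e-04) and 1.03 with siRNA B (SE 0.20, adjusted p = 0.00214), and both calls held under all 18 settings.

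CANX (ENSG00000127022.10, chr5:179105629-179158642), calnexin, is the membrane lectin that holds freshly glycosylated proteins, and CALR (ENSG00000179218.8, chr19:13049392-13055303), calreticulin, is its soluble relative. The pair moved apart. CANX stood at 755, 784 and 819 TMM-scaled CPM in control, at 1232, 1496 and 1297 in siRNA A and at 1538, 1748 and 1333 in siRNA B. Those of CALR were 1041, 1018 and 1060.1 in control, 691, 715 and 651 in siRNA A and 613, 509 and 582 in siRNA B. Neither gene had a siRNA library within the control range. CANX rose by 0.77 (SE 0.13, adjusted p = 4.68e-04) and 0.96 (SE 0.13, adjusted p = 2.24e-04) on the log2 scale with siRNA A and B. CALR fell by 0.60 (SE 0.10, adjusted p = 6.12e-04) and 0.87 (SE 0.10, adjusted p = 1.09e-04), and all 4 calls held under every setting.

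CRELD2 (ENSG00000184164.10, chr22:50311815-50321188) and CRELD1 (ENSG00000163703.12, chr3:9975477-9987097) are related ER proteins with EGF-like repeats, and CRELD2 is a known ER stress gene. CRELD2 showed the largest change of the 40 genes. It stood at 33.3, 26.8 and 34.5 TMM-scaled CPM in control, at 9.36, 7.63 and 5.95 in siRNA A and at 7.11, 5.36 and 6.49 in siRNA B. The lowest control library was over 2 times the highest siRNA library, and the log2 fold change was −1.92 (SE 0.17, adjusted p = 6.7e-06) with siRNA A and −2.15 (SE 0.17, adjusted p = 5.98e-06) with siRNA B. CRELD1 held 11.2, 10.8 and 10.8 in control, 5.26, 5.29 and 5.89 in siRNA A and 5.77, 5.23 and 5.57 in siRNA B. Its log2 fold changes were −0.88 (SE 0.11, adjusted p = 8.62e-05) and −0.87 (SE 0.11, adjusted p = 1.91e-04). These 4 calls held under every setting. Both genes overlap another gene on the opposite strand, ALG12 for CRELD2 and PRRT3 for CRELD1. CRELD1 also overlaps ENSG00000288550 on its own strand, so its reads are uncertain.

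The other chaperones moved less. DNAJB11, a J-domain partner of HSPA5 in folding, rose with siRNA A from 147 ± 20.4 to 215 ± 14.4 TMM-scaled CPM (SD, n = 3; log2 fold change 0.56, adjusted p = 0.0032). Smaller rises were called for DNAJC3, which inhibits eIF2alpha kinases (0.43, adjusted p = 0.0125), and DNAJC10, a J-domain disulfide reductase (0.37, adjusted p = 0.011). The DNAJC3 call failed without siRNA A replicate 1 (0.32, adjusted p = 0.06). Both calls failed after GC correction, at 0.31 (adjusted p = 0.0583) for DNAJC3 and 0.20 (adjusted p = 0.113) for DNAJC10, and with totals alone, at 0.08 and 0.00. HYOU1, the nucleotide exchange factor of HSPA5, was lower by −0.30 with siRNA A (adjusted p = 0.0325). That call failed after GC correction (−0.13, adjusted p = 0.327). It failed as well without control replicate 1 (adjusted p = 0.0536), control replicate 3 (adjusted p = 0.132), siRNA A replicate 2 (adjusted p = 0.0722) or siRNA A replicate 3 (adjusted p = 0.0847).

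MANF, a secreted ER stress protein, differed between the siRNAs. It averaged 88.2 ± 10.9 TMM-scaled CPM in control, 99.3 ± 9.31 in siRNA A and 61.8 ± 16.5 in siRNA B. The difference of siRNA A minus siRNA B was 0.71 on the log2 scale (SE 0.18, adjusted p = 0.00904). Its fall with siRNA B (−0.54, adjusted p = 0.0356) failed without control replicate 1, 2 or 3 (adjusted p = 0.0982, 0.0653 and 0.0507) or without siRNA B replicate 2 (−0.30, adjusted p = 0.0912). SDF2L1, which works with DNAJB11, was not called against control, at 0.25 (adjusted p = 0.254) with siRNA A and −0.41 (adjusted p = 0.0879) with siRNA B, but was higher in siRNA A than in siRNA B by 0.66 (adjusted p = 0.0117). After GC correction SDF2L1 was called higher with siRNA A (0.51, adjusted p = 0.013).

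**Figure D3:**
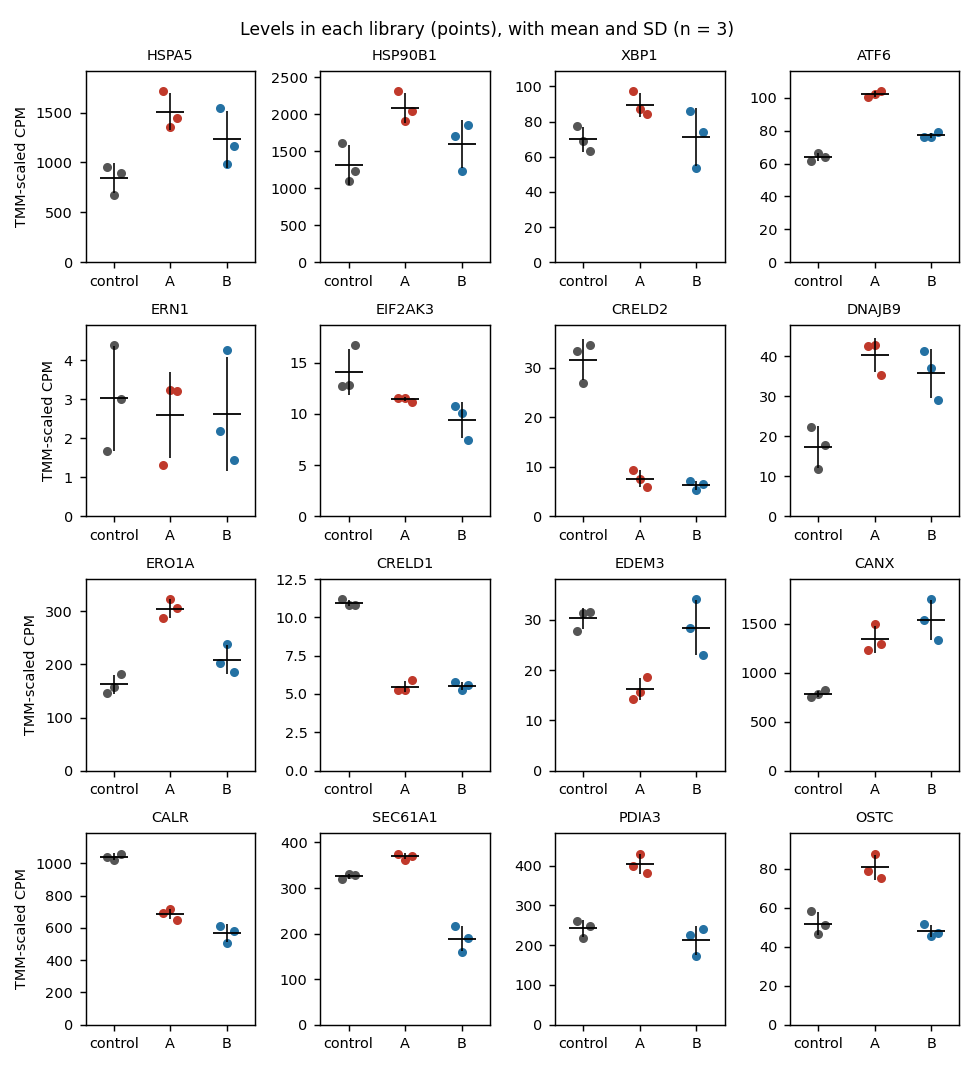
TMM-scaled CPM (vertical axis, from 0) of 16 members in each control, siRNA A and siRNA B library (points), with the mean (dash) and SD (bar) of each group of 3. CRELD2 falls below 10 in all 6 siRNA libraries, SEC61A1 is low in the siRNA B libraries alone, and ERN1 scatters as widely within groups as between them.

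Among the 7 disulfide isomerases and oxidases, which make and rearrange disulfide bonds, 3 were higher and 2 lower with siRNA A, and 2 higher and none lower with siRNA B. ERO1A (ENSG00000197930.8, chr14:53106633-53162618) is the oxidase that recharges the isomerases and is also known to respond to low oxygen. It stood at 147, 158 and 182 TMM-scaled CPM in control, at 288, 322 and 306 in siRNA A and at 202, 239 and 186 in siRNA B. The siRNA A libraries were well above the rest, while siRNA B replicate 3 was just above control replicate 3. The log2 fold change was 0.91 with siRNA A (SE 0.12, adjusted p = 9.47e-05) and 0.36 with siRNA B (SE 0.12, adjusted p = 0.0346), and the siRNAs differed by 0.55 (SE 0.12, adjusted p = 0.004). The siRNA B call failed without control replicate 1 or 2 (adjusted p = 0.127 and 0.108), without siRNA B replicate 1 or 2 (adjusted p = 0.0767 and 0.108) and after GC correction (0.24, adjusted p = 0.11).

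PDIA3 (ENSG00000167004.8, chr15:44038592-44065477), or ERp57, is the isomerase that partners calnexin and calreticulin. Its levels were 260.4, 219 and 248 TMM-scaled CPM in control, 399, 430.4 and 381 in siRNA A and 226, 172 and 241 in siRNA B. Only siRNA A was above control, by 0.73 (SE 0.13, adjusted p = 7.2e-04), beside −0.20 (SE 0.13, adjusted p = 0.27) for siRNA B. The direct difference between the siRNAs was 0.93 (SE 0.13, adjusted p = 3.05e-04).

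P4HB, the classical protein disulfide isomerase, rose with both siRNAs. Control libraries averaged 1044 ± 50.7 TMM-scaled CPM, siRNA A libraries 1533 ± 129 (0.55, adjusted p = 0.00185) and siRNA B libraries 1669 ± 104 (0.68, adjusted p = 9.61e-04). With totals alone the siRNA A value was 0.18 (adjusted p = 0.189). PDIA4, a larger isomerase of the same family, went the other way, from 305 ± 15.9 to 189 ± 7.85 with siRNA A (−0.68, adjusted p = 1.33e-04), while siRNA B gave 255 ± 17 (−0.26, adjusted p = 0.0536). TXNDC11, a thioredoxin-domain protein, fell with siRNA A (−0.60, adjusted p = 0.00392). Its value with siRNA B was −0.38 (adjusted p = 0.0539), which passed without siRNA A replicate 2 (adjusted p = 0.0493) or siRNA B replicate 1 (−0.52, adjusted p = 0.0212).

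PDIA6, which also acts on the IRE1 sensor, was not called with siRNA A (0.27, adjusted p = 0.0621), but passed in the fit with the replicate number as a block (adjusted p = 0.0487), after GC correction (0.29, adjusted p = 0.0427) and without siRNA B replicate 2 (adjusted p = 0.0348). TXNDC5, another isomerase, shares its locus with the readthrough gene BLOC1S5-TXNDC5, which could have split its reads. It was not called, at 0.10 and −0.09.

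Of the 4 sensors and factors, ATF6 alone was called higher on the TMM scale. ATF6 (ENSG00000118217.5, chr1:161736088-161947364) stood at 61.7, 66.5 and 63.8 TMM-scaled CPM in control, at 101, 102 and 104 in siRNA A and at 76.1, 76.1 and 79.0 in siRNA B. The 3 groups were fully separate, with siRNA B between the other two. The log2 fold change was 0.67 with siRNA A (SE 0.08, adjusted p = 7.98e-05) and 0.26 with siRNA B (SE 0.08, adjusted p = 0.0305), and siRNA A exceeded siRNA B by 0.40 (SE 0.08, adjusted p = 0.00343), a call that did not hold with totals alone (0.25, adjusted p = 0.0769). The siRNA B call failed without control replicate 1, 2 or 3 (adjusted p = 0.0982, 0.0577 and 0.0808) and without siRNA B replicate 1 or 3 (adjusted p = 0.0789 and 0.0934). It failed as well after GC correction (0.18, adjusted p = 0.108) and with totals alone (0.06, adjusted p = 0.712).

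EIF2AK3 (ENSG00000172071.7, chr2:88856259-88991036), the gene of the PERK kinase, held 12.7, 12.8 and 16.7 TMM-scaled CPM in control, 11.5, 11.6 and 11.2 in siRNA A and 10.7, 10.1 and 7.45 in siRNA B. All siRNA libraries lay below control. The change was −0.53 with siRNA B (SE 0.15, adjusted p = 0.0173) and −0.27 with siRNA A (SE 0.15, adjusted p = 0.157). The siRNA B call failed without control replicate 3 (−0.41, adjusted p = 0.0797) or siRNA B replicate 3 (−0.39, adjusted p = 0.0701). After GC correction the siRNA A value became −0.38 (adjusted p = 0.0443).

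XBP1 (ENSG00000100219.12, chr22:29190543-29196585) codes for the transcription factor made by IRE1-dependent splicing. It stood at 77.4, 69.1 and 63.0 TMM-scaled CPM in control, at 97.2, 87.4 and 84.1 in siRNA A and at 85.7, 53.5 and 74.1 in siRNA B. Its siRNA A libraries were all above control, yet the log2 fold change of 0.36 (SE 0.15, adjusted p = 0.072) missed the threshold. With the replicate number as a block it passed (adjusted p = 0.0218), and it also passed without control replicate 1 (0.44, adjusted p = 0.0491) or siRNA B replicate 2 (adjusted p = 0.0157). The siRNA B value was 0.00 (SE 0.15, adjusted p = 0.987).

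ERN1 (ENSG00000178607.9, chr17:62116440-62208179), the gene of the IRE1 sensor, was the lowest of the 40 genes. It held 1.67, 4.39 and 3.01 TMM-scaled CPM in control, 1.33, 3.25 and 3.21 in siRNA A and 2.19, 4.26 and 1.45 in siRNA B. The groups overlapped throughout, and the log2 fold change was −0.16 (SE 0.33, adjusted p = 0.709) with siRNA A and −0.16 (SE 0.33, adjusted p = 0.729) with siRNA B. A difference would have had to be well above these standard errors to be called, so a change of ERN1 is not excluded.

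Of the 8 genes of ER-associated degradation, which pulls misfolded proteins back to the cytosol for the proteasome, 2 were higher and 2 lower with siRNA A, and 1 was higher and 1 lower with siRNA B. Among 8 genes these counts are near the shares of all genes, 23.9% and 27.6% for siRNA A, 15.6% and 18.3% for siRNA B. The derlins, membrane proteins of the exit channel, rose with siRNA A. DERL1 went from 102 ± 2.67 to 169.5 ± 16.4 TMM-scaled CPM (SD, n = 3; 0.72, adjusted p = 1.02e-04) and DERL2 from 35.1 ± 2.90 to 55.4 ± 3.73 (0.64, adjusted p = 5.5e-04). Neither was called with siRNA B, at 0.11 and 0.14, and the siRNAs differed by 0.61 (adjusted p = 5.59e-04) for DERL1 and 0.51 (adjusted p = 0.00427) for DERL2.

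The EDEM proteins, which trim mannose from misfolded glycoproteins, were lower or not called. EDEM3 (ENSG00000116406.13, chr1:184659371-184724041) stood at 27.8, 31.4 and 31.5 TMM-scaled CPM in control, at 14.3, 15.6 and 18.5 in siRNA A and at 28.4, 34.0 and 22.9 in siRNA B. All siRNA A libraries were below the others, with a change of −0.87 (SE 0.15, adjusted p = 5.12e-04) for siRNA A, −0.10 (SE 0.15, adjusted p = 0.634) for siRNA B and −0.77 (SE 0.15, adjusted p = 0.00201) for siRNA A minus siRNA B. EDEM2 fell with both, from 18.6 ± 0.753 to 11.7 ± 1.45 and 11.6 ± 0.372 (−0.63 with each, adjusted p = 8.83e-04 and 0.00163). EDEM1 was at −0.22 (adjusted p = 0.197) and 0.11 (adjusted p = 0.556).

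The ubiquitin ligase SYVN1 and its partner SEL1L form the core of the retrotranslocation complex. SYVN1 rose with siRNA B, from 47.3 ± 4.58 to 62.8 ± 4.06 TMM-scaled CPM (0.41, adjusted p = 0.0107), and was at 0.05 (adjusted p = 0.73) with siRNA A. Its siRNA B call failed without control replicate 2 (0.33, adjusted p = 0.0546) or siRNA B replicate 1 (0.37, adjusted p = 0.05), and with totals alone its siRNA A value turned to −0.31 (adjusted p = 0.0302). SYVN1 overlaps FAU and MRPL49, so its reads are uncertain. SEL1L was not called, at −0.23 (adjusted p = 0.104) and −0.13 (adjusted p = 0.398), but was called lower with siRNA A after GC correction (−0.37, adjusted p = 0.0158).

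HERPUD1, a membrane protein of the same complex that is strongly induced by ER stress in many cells, varied between replicates. Its means were 46.1 ± 11.6 TMM-scaled CPM in control, 58.9 ± 15.2 in siRNA A and 41.4 ± 15.8 in siRNA B. Its value was 0.35 (SE 0.26, adjusted p = 0.289) with siRNA A, where it passed in the fit with the replicate block (adjusted p = 0.018), and −0.18 (SE 0.26, adjusted p = 0.628) with siRNA B.

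Of the 7 genes of entry into and exit from the ER, 6 were higher and none lower with siRNA A, and 2 were higher and 1 lower with siRNA B. The translocon is the channel through which new proteins enter, and its pore is SEC61A1. SEC61A1 (ENSG00000058262.5, chr3:127770484-127790548) stood at 319, 331 and 328 TMM-scaled CPM in control, at 376, 362 and 371 in siRNA A and at 216, 160.4 and 191 in siRNA B. It was low in all 3 siRNA B libraries, with a change of −0.79 (SE 0.11, adjusted p = 3.01e-04) for siRNA B, 0.18 (SE 0.11, adjusted p = 0.191) for siRNA A and 0.97 (SE 0.11, adjusted p = 8.52e-05) for siRNA A minus siRNA B, the largest such difference among the 40 genes. SEC61A1 overlaps MGLL and RUVBL1 on the opposite strand.

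The small translocon subunits did not follow the pore. SEC61G rose from 21.8 ± 4.25 to 35.6 ± 4.18 TMM-scaled CPM with siRNA A (0.69, adjusted p = 0.00206) and to 32.5 ± 2.12 with siRNA B (0.57, adjusted p = 0.0107). SEC61B rose with siRNA A (0.61, adjusted p = 0.00545) and was at 0.24 (adjusted p = 0.251) with siRNA B. Of the translocon-associated proteins, SSR1 rose with both (0.54, adjusted p = 0.0019, and 0.62, adjusted p = 0.00143) and SSR2 with siRNA A (0.47, adjusted p = 0.00773). The siRNA A calls of SEC61G, SEC61B, SSR1 and SSR2 were lost with totals alone, where the values lay between 0.11 and 0.34.

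OSTC (ENSG00000198856.8, chr4:109571741-109588976) ties the oligosaccharyltransferase, the enzyme that adds N-glycans, to the translocon. It stood at 58.1, 46.3 and 51.0 TMM-scaled CPM in control, at 79.0, 87.7 and 75.3 in siRNA A and at 51.6, 45.4 and 46.9 in siRNA B. Only the siRNA A libraries were raised, by 0.63 (SE 0.11, adjusted p = 6.48e-04), beside −0.10 (SE 0.11, adjusted p = 0.501) for siRNA B, and the siRNAs differed by 0.74 (SE 0.11, adjusted p = 4.63e-04). SEC24D, a cargo adaptor of the COPII coat that buds vesicles from the ER, showed the same order, with 32.3 ± 1.72 in control, 49.2 ± 0.338 in siRNA A and 33.0 ± 4.95 in siRNA B (0.59, adjusted p = 0.00118, and 0.02, adjusted p = 0.899). With totals alone the siRNA A values were 0.27 (adjusted p = 0.0693) for OSTC and 0.23 (adjusted p = 0.151) for SEC24D.

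WFS1, a calcium regulator of the ER membrane, fell with siRNA A from 28.0 ± 1.54 to 17 ± 1.29 TMM-scaled CPM (−0.69, adjusted p = 2.93e-04) and stood at 28.7 ± 2.18 with siRNA B (0.03, adjusted p = 0.838).

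Compared directly, 12 of the 40 genes were higher in the libraries labelled siRNA A than in those labelled siRNA B and 4 were lower (PDIA4, SYVN1, EDEM3 and WFS1), where 17.6% of all genes were called higher and 19.5% lower. The median difference was 0.24, beside −0.01 for all genes. With totals alone, 9 were higher and 7 lower, beside 10.2% and 27.0% of all genes. Besides the genes above, the higher calls held DNAJB11 (0.40, adjusted p = 0.0254) and SSR2 (0.35, adjusted p = 0.0469). The DNAJB11 call failed without siRNA A replicate 1 or 2 or siRNA B replicate 2 (adjusted p = 0.0815, 0.0617 and 0.0773), and with totals alone (0.25, adjusted p = 0.155). That of SSR2 was lost under 8 of 18 settings. It failed without control replicate 3, siRNA A replicate 1 or 2, or siRNA B replicate 2 or 3. Its values there were 0.27 to 0.35, with adjusted p from 0.0657 to 0.139. The SSR2 call failed as well with totals alone (0.19, adjusted p = 0.278), with edgeR (adjusted p = 0.0505) and with only the compared groups fitted (adjusted p = 0.0541). The lower call of SYVN1 (−0.36, adjusted p = 0.018) failed without siRNA A replicate 2 or 3 or siRNA B replicate 1 (adjusted p = 0.0513, 0.0542 and 0.0736).

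A list of 91 other genes of ER protein handling, of which 90 passed the filter, was set beside the 40. With siRNA A, 49 were higher and 6 lower, beside 23.9% and 27.6% of all genes, with a median of 0.37 beside −0.02. With siRNA B, 28 were higher and 5 lower, beside 15.6% and 18.3% of all genes, with a median of 0.23 beside 0.0043. With totals alone these counts became 14 and 21 for siRNA A, beside 9.05% higher and 47.0% lower of all genes, and 13 and 9 for siRNA B, beside 6.9% and 29.7%. In the group of signal recognition, other translocon subunits and signal peptidase, 13 of 19 were higher and none lower with siRNA A, and 6 were higher and none lower with siRNA B. In the COPII coat 8 of 10 were higher and none lower with siRNA A, but with siRNA B 2 were higher and 1 lower. Glycan transfer and processing had 6 of 12 higher and 1 lower with siRNA A, and 4 higher with siRNA B. The other oxidative folding enzymes had 6 of 12 higher with siRNA A, and 2 higher and 1 lower with siRNA B. Other chaperones had 2 of 7 higher and 1 lower with siRNA A, and 3 higher with siRNA B. Of 16 tested genes of other ER-associated degradation, 7 were higher and 3 lower with siRNA A. With siRNA B, 7 of them were higher and 2 lower. Of 14 genes of unfolded protein response processing and PERK output, 7 were higher and 1 lower with siRNA A. With siRNA B, 4 of them were higher and 1 lower. These group counts are to be read against the shares of all genes on the TMM scale.

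**Figure D4:**
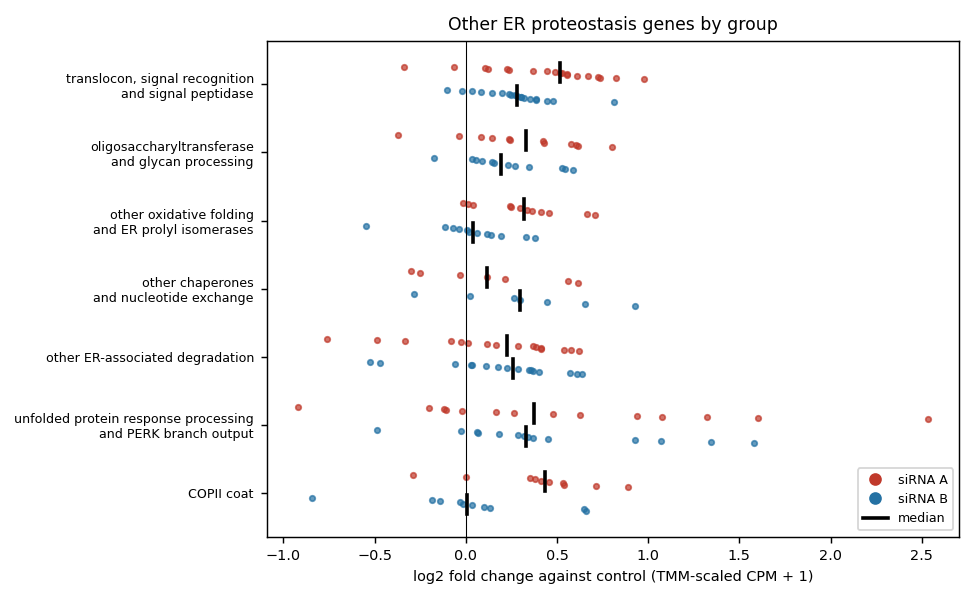
Log2 fold change against control (horizontal axis) of 90 other genes of ER protein handling by group, for siRNA A (red) and siRNA B (blue), with the median of each group as a black bar. The farthest points to the right are ATF3, CHAC1, PPP1R15A and DDIT3 in the row of the PERK branch, and the median of the COPII genes is 0.43 for siRNA A and 0.0088 for siRNA B.

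The largest rises in this wider list were of single genes in the output of the PERK branch. They are named for the size of their change, so they do not describe that branch as a whole. Its genes ATF4, ASNS, TRIB3 and PPP1R15B are in the same group, and their values are not given here. Of the 14 genes of that group, 6 were not called with siRNA A and 9 were not called with siRNA B. ATF3, a stress transcription factor, stood at 27.2, 13.4 and 22.4 TMM-scaled CPM in control, at 95.6, 203 and 92.1 in siRNA A and at 61.1, 48.2 and 49.5 in siRNA B (2.53, SE 0.29, adjusted p = 4.42e-05, and 1.34, SE 0.29, adjusted p = 0.00456). DDIT3, which codes for the stress factor CHOP, rose by 0.94 (adjusted p = 0.00487) and 1.58 (adjusted p = 3.59e-04). PPP1R15A, the phosphatase subunit that reverses eIF2alpha phosphorylation, rose by 1.32 (adjusted p = 3.08e-04) and 1.07 (adjusted p = 0.00218). CHAC1, a glutathione-degrading enzyme, rose with siRNA A (1.6, adjusted p = 4.92e-04) and was at 0.37 (adjusted p = 0.316) with siRNA B. These genes also answer other stresses that phosphorylate eIF2alpha. Among the falls with siRNA A were those of the ER-bound factor CREB3 (−0.92, adjusted p = 9.38e-05) and the VCP cofactor NPLOC4 (−0.49, adjusted p = 0.00149). With siRNA B the largest falls were of the COPII GTPase SAR1A (−0.85, adjusted p = 8.24e-04), the prolyl isomerase FKBP14 (−0.55, adjusted p = 0.00554) and NPLOC4 (−0.53, adjusted p = 0.00169).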

How the data were processed

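RNA-seq of 9 libraries of HCT116 cells was used, 3 for each of control siRNA, siRNA A and siRNA B. The authors deposited CPM values, reads per gene per 1000000 reads of the library. Per the submitters' processing notes, TopHat2 and HTSeq (each version 2) and the GRCh37 build (hg19) were named, and strand use was not given in the sources used here. In every library 100% of the deposited CPM values were whole multiples of the value of 1 read (tolerance 0.01 reads), so reads were recovered. A count test on these reads served as an alternative. At 3 reads a gene stood at 0.129 to 0.193 CPM, and these floors cover counting error only. Log2 values correlated with r from 0.983 to 0.994 within groups and from 0.950 to 0.977 between groups, and no pair of libraries agreed within sampling noise (chi-square per degree of freedom at least 13.0). The methods call the libraries biological replicates, but p-values measure only the spread between these libraries.

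TMM factors came from edgeR 4.0.16. The 13893 genes that reached 1 CPM in 3 or more of the 9 libraries were tested with limma 3.58.1 (trend, R 4.3.3) on log2(TMM-scaled CPM + 1), with all 9 libraries in a single fit, Benjamini-Hochberg adjustment over all tested genes and a threshold of 0.05. The procedure was tested on simulated data. Alternatives were library totals alone, a pseudocount of 0.1, no filter, edgeR's quasi-likelihood test and DESeq2 1.42.0 on recovered reads, the compared groups alone, a replicate block, a lowess correction for exon GC content, both together, and each library left out. On recovered reads edgeR called 3335 genes higher and 3825 lower for siRNA A, and 2221 and 2559 for siRNA B. For replicate numbers 1, 2 and 3, deviations from group means correlated between control and siRNA A (0.65, 0.41 and 0.13), so these numbers may pair those libraries. The main fit did not model such a pairing, and the replicate block was run only as an alternative. With that block PDIA6, XBP1 and HERPUD1 were also called higher with siRNA A.

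Identifiers were matched without version to GENCODE lifted to GRCh37 (14871 of 15354), which also gave gene coordinates and overlaps. That annotation is newer than the identifiers, and 30 of the 40 genes overlap some other annotated gene. Values per library are given for HSPA5, HSP90B1, XBP1, the sensors, the 6 members with the largest called change for each siRNA against control and the 4 between the siRNAs. For the wider list, the 3 largest called changes in each direction are named, except 1 gene that is not reported here. The members and lists were chosen with earlier results of these data known. Tables and plots were made in Python 3.11.15 (pandas 2.3.3, numpy 2.4.6, matplotlib 3.10.9). The siRNA sequences and the promoters of SEC24D, PDIA3 and DERL1 were not used here.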

Additional observations from a re-analysis of the deposited data

Results flagged for a closer look

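Of the 40 genes, 5 had estimates of opposite sign with the siRNAs, only 1 of the 2 called against control, and a called difference between the siRNAs. The estimate not called lay between −0.20 (PDIA3, siRNA B) and 0.18 (SEC61A1, siRNA A), so an effect in the opposite direction is not shown. The test of the difference was limma on siRNA A minus siRNA B with 3 libraries a group. The difference was 0.97 for SEC61A1 (adjusted p = 8.52e-05), 0.93 for PDIA3 (adjusted p = 3.05e-04), 0.74 for OSTC (adjusted p = 4.63e-04), 0.71 for MANF (adjusted p = 0.00904) and −0.72 for WFS1 (adjusted p = 4.24e-04). These calls between the siRNAs held under all 18 alternatives, library totals alone among them.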

How the results depend on the processing

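With library totals alone, siRNA A gave 7 members higher, a median of −0.00895 and 14 higher and 21 lower of the wider list. siRNA B gave 4 higher, 12 lower, a median of −0.18 and 13 and 9 of the wider list, and siRNA A minus siRNA B gave 7 lower. SYVN1 turned to −0.31 with siRNA A. Higher calls were 46.4% of all calls for siRNA A with TMM and 16.1% with totals alone, and 46.0% and 18.8% for siRNA B. The construction of the scales fixes this shift, and the data do not say which scale is right.

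Leaving out each library in turn gave 18 to 21 members higher and 8 to 9 lower with siRNA A, and 5 to 9 higher and 5 to 8 lower with siRNA B. The 5 higher calls arose without control replicate 2 or without siRNA B replicate 1, and the 5 lower calls without control replicate 3. In the wider list it gave 38 to 52 higher and 3 to 6 lower with siRNA A (3 without control replicate 3), and 16 to 30 higher and 5 to 6 lower with siRNA B (16 without control replicate 2, 18 without siRNA B replicate 1). The medians ran from 0.27 to 0.40 and from −0.04 to 0.10.

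Between control and siRNA B the deviations of same-numbered libraries correlated at 0.17, 0.44 and −0.39. Between siRNA A and siRNA B they correlated at 0.20, 0.44 and 0.019. At replicate 2 both values were near the 0.41 between control and siRNA A, while the other numbers were lower. Whether these libraries were paired was not tested. Over all genes the replicate block raised the siRNA B calls against control from 2172 higher and 2547 lower to 2766 and 3025. The replicate block added SDF2L1 (−0.41, adjusted p = 0.0218) and TXNDC11 (−0.38, adjusted p = 0.0144) to the siRNA B calls. Between the siRNAs it added HSP90B1, XBP1, HERPUD1 and SEC61B to the higher calls (16 in all) and EDEM1 to the lower, and lost none. For siRNA A it changed no call beyond PDIA6, XBP1 and HERPUD1. Called under all 18 alternatives were 7 of 19 higher and 8 of 9 lower members with siRNA A, and 4 of 9 and 5 of 7 with siRNA B. Of 120 member values, the pseudocount changed no call, edgeR ended 1 and DESeq2 added 6. ERN1, with 25 reads in its lowest library, had the widest SE (0.33) of the 40 genes.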

Other observations

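RTCB, the ligase that joins the cut ends of spliced XBP1 mRNA, was called in opposite directions by the siRNAs. It was picked after its values were seen. It stood at 63.3, 59.1 and 65.2 TMM-scaled CPM in control, at 86.1, 88.6 and 88.0 where the label was siRNA A and at 43.7, 42.0 and 47.1 where it was siRNA B. The groups did not overlap, and limma gave log2 fold changes of 0.48 (SE 0.09, adjusted p = 0.00104) and −0.49 (SE 0.09, adjusted p = 0.00172), with a difference between the siRNAs of 0.97 (SE 0.09, adjusted p = 2.97e-05).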
